A study of Mus musculus with 2 samples.

Results

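Tendon regulators and small leucine-rich proteoglycans were examined in the fetal mouse face as 10 genes listed by symbol and matched by Ensembl identifier. All 10 were found in both gene tables, among 43346 Ensembl genes. The list holds the transcription factor genes Scx, Mkx and Egr2, the tendon protein genes Tnmd and Thbs4, and the proteoglycan genes Dcn, Bgn, Lum, Fmod and Kera. The genes were listed by name, with earlier results of these data known.

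The series has 1 group, facial prominence of B6NCrl mouse embryos at embryonic day 14.5, with 2 libraries of total RNA from 10.0 ng each. The labels number the samples as biological replicates 1 and 2 and describe each as the face of 1 pup, collected on different days, while another label gives the sex as pooled male and female. The labels name no transgene, mutation or treatment, and the series compares no conditions. The results are therefore levels, the spread between 2 libraries and the difference between them. The smallest two-sided p of an exact sign permutation with 2 samples is 0.5, and therefore no p-values are given.

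Tendon joins muscle to bone with parallel fibrils of type I collagen. Scleraxis, the product of Scx, marks tendon progenitors early, and Mohawk and the Egr factors act with it on collagen and tenomodulin genes. Small leucine-rich proteoglycans are secreted proteins with a chain of leucine-rich repeats that bind collagen fibrils and set their width and spacing. Decorin and biglycan carry chondroitin or dermatan sulfate chains, while fibromodulin, lumican and keratocan can carry keratan sulfate. They are widespread in connective tissue, so they mark no single cell type.

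Depth was 30919488 expected counts in replicate 1 and 37738872 in replicate 2. Levels are TPM, a share of all transcripts that is corrected for their length, as mean ± SD over both libraries (n = 2). Over the 11482 genes at a mean of 5 TPM or more, the log2(TPM + 1) of replicate 2 minus that of replicate 1 had a median of −0.15 and an SD of 0.28, so ratios below are also given relative to that median. Markers of neighbouring tissues differed between the libraries. The summed level of 12 cartilage markers was 1318 and 782 TPM in replicates 1 and 2, that of 8 osteoblast markers 972 and 1498 TPM, and that of 8 skeletal muscle markers 4060 and 5752 TPM. Ratios above that of the median gene were found for 1 of the 12 cartilage, 7 of the 8 osteoblast and all 8 muscle markers. All genes of these 3 lists reached 1 TPM in both libraries. Past 2-fold were the cartilage genes Matn1, at 104 and 39.3 TPM in replicates 1 and 2, and Sox5, at 17.1 and 7.27 TPM, and the osteoblast gene Bglap, at 6.44 and 25.3 TPM. Of all 11482 genes 0.47% were 2-fold higher in replicate 2 and 0.244% lower. In CPM, a gene's counts as a share of the library total, the ratio of replicate 2 to replicate 1 was 0.562 for Sox5, short of 2-fold. In bulk tissue a different number of cells of a type and a different amount of RNA per cell cannot be told apart.

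All 10 genes reached 1 TPM in both libraries, where 63.9% of 21474 named protein-coding genes did so. The levels ran from 1.63 TPM for Egr2 to 538.85 TPM for Dcn, with a median of 40.6 TPM. The order of the means was Dcn, Lum, Bgn, Tnmd, Thbs4, Fmod, Scx, Kera, Mkx and Egr2. The values of the libraries overlapped for 2 of the 9 pairs of neighbours in this order, Dcn with Lum and Scx with Kera. The SD was between 1.34% of the mean for Fmod and 32.1% for Egr2.

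**Figure D1:**
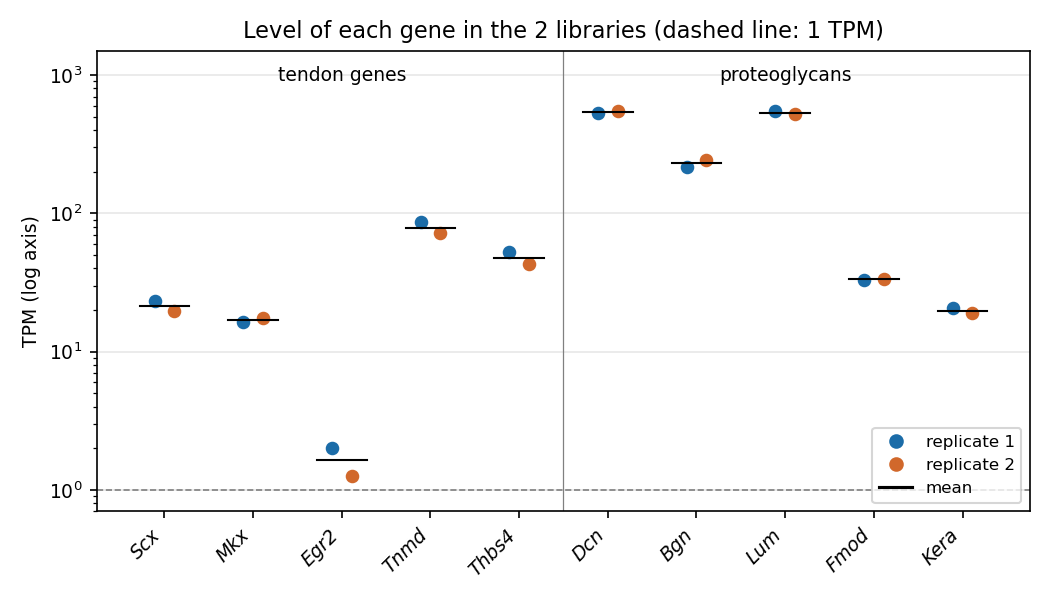
TPM of each of the 10 genes on a log axis, with 1 point per library and a line at the mean; the dashed line is 1 TPM. Dcn and Lum lie together at the top, and Egr2 is the lowest at 2.00 and 1.26 TPM.

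Among the regulators, Scx had the highest level. Scx (ENSMUSG00000034161.7, chromosome 15, 76457452 to 76459458, plus strand, mm10), a basic helix-loop-helix factor of tendon progenitors, had 23.1 and 19.6 TPM in replicates 1 and 2, a mean of 21.4 ± 2.50 TPM from 473 and 518 counts. It ranked 5994 of the 21474 protein-coding genes. Replicate 1 was the higher library, by less than the SD of all genes. The gene lies within the span of Bop1, a ribosome biogenesis gene on the opposite strand, and shares 0 exon bases with it. Bop1 had 51.2 and 42.4 TPM, and whether the counting used strand is not given in the sources used here.

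Mkx (ENSMUSG00000061013.5, chromosome 18, 6934518 to 7004780, minus strand), the homeobox factor Mohawk, had 16.4 and 17.4 TPM in replicates 1 and 2, from 949 and 1147 counts. Its mean was 16.9 ± 0.679 TPM, and its ratio to Scx was 0.799 ± 0.125. Both libraries had Mkx below Scx.

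Egr2 (ENSMUSG00000037868.11, chromosome 10, 67535475 to 67542188, plus strand), a zinc finger factor of tendon cells, Schwann cells and hindbrain segments, was the lowest member. It had 2.00 and 1.26 TPM in replicates 1 and 2, from 90 and 92 counts, and ranked 13255. In CPM the ratio of replicate 2 to replicate 1 was 0.838, with an exact 95% counting interval of 0.619 to 1.13 that contains 1. Of 10 markers of Schwann cells, which also use Egr2, 9 reached 1 TPM in both libraries, where 63.9% of protein-coding genes did. Their summed level was 355 and 356 TPM, of which Pmp22, a gene that other tissues also express, had 218 and 225 TPM, and the median of the list was 10.7 TPM. Pou3f1, a regulator that acts before Egr2 in Schwann cells, was at 1.35 and 0.880 TPM. Of 5 genes of hindbrain segments 4 reached 1 TPM in both, with sums of 59.1 and 42.8 TPM, and Hoxb1 was at 0.10 TPM in each, from 2 and 4 counts. The part of these cells in the Egr2 level was not tested.

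The 2 genes for proteins of the tendon itself lay above the regulators. Tnmd (ENSMUSG00000031250.8, chromosome X, 133850980 to 133865577, plus strand), tenomodulin, a transmembrane protein of mature tenocytes, had 85.9 and 71.6 TPM in replicates 1 and 2, from 2124 and 2288 counts. Its mean of 78.8 ± 10.1 TPM was above that of 91.6% of protein-coding genes. The ratio of Tnmd to Scx was 3.71 in replicate 1 and 3.65 in replicate 2, a mean of 3.68 ± 0.0429.

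Thbs4 (ENSMUSG00000021702.7, chromosome 13, 92751590 to 92794818, minus strand), thrombospondin 4, a matrix protein of tendon and of its junction with muscle, had 52.4 and 43.2 TPM, a mean of 47.8 ± 6.51 TPM from 3203 and 3393 counts. Tnmd and Thbs4 were both higher in replicate 1, as was Scx. In CPM the ratio of replicate 2 to replicate 1 was 0.883 for Tnmd, with a counting interval of 0.832 to 0.937, and 0.868 for Thbs4, with an interval of 0.827 to 0.911. These intervals leave out 1, but they cover counting error only and not the difference between embryos. The intervals of Dcn, Bgn, Fmod and Lum also left out 1, with replicate 2 higher. Those of Scx, Mkx, Egr2 and Kera contained 1.

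Dcn and Lum were the most abundant of the 10 genes and could not be ordered. Dcn (ENSMUSG00000019929.11, chromosome 10, 97479609 to 97518143, plus strand), decorin, had 531 and 546 TPM in replicates 1 and 2, a mean of 538.85 ± 10.6 TPM and rank 214 of protein-coding genes. Lum (ENSMUSG00000036446.4, chromosome 10, 97565128 to 97572703, plus strand), lumican, had 545 and 527 TPM, a mean of 536 ± 13.02 TPM and rank 218. Lum was the higher gene in replicate 1 and Dcn in replicate 2, and their ratio was 0.996 ± 0.0438. Dcn drew 18710 and 24855 counts and Lum 21254 and 26540. Type I collagen, which decorin binds, was higher, with Col1a1 at 5.56 times the Dcn level in replicate 1 and 6.58 times in replicate 2.

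Bgn (ENSMUSG00000031375.13, chromosome X, 73483602 to 73495933, plus strand), biglycan, the close relative of decorin, had 217 and 243 TPM in replicates 1 and 2, a mean of 230.3 ± 18.6 TPM. It reached 0.427 ± 0.0261 of the Dcn level. Bgn had the largest positive ratio between libraries among the 10 genes, at 0.16 on the log2(TPM + 1) scale, or 0.31 relative to the median gene. The osteoblast markers given above had a median of 0.53 and the muscle markers of 0.63 on the same scale, and their part in the Bgn value was not tested.

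Fmod and Kera lay far below Lum. Fmod (ENSMUSG00000041559.7, chromosome 1, 134037254 to 134048277, plus strand), fibromodulin, which binds the same collagen fibrils as lumican, had 33.0 and 33.6 TPM in replicates 1 and 2, a mean of 33.3 ± 0.445 TPM. Lum exceeded it 16.1 ± 0.606 times. Kera (ENSMUSG00000019932.7, chromosome 10, 97606879 to 97613692, plus strand), keratocan, best known from the corneal stroma, had 20.6 and 18.95 TPM from 750 and 894 counts, and Lum exceeded it 27.2 ± 0.897 times. Of the 3 cornea markers matched, Aldh3a1 had 1.40 and 1.89 TPM, Pax6, which other tissues also express, had 1.97 and 1.38 TPM, and the corneal keratin Krt12 had 0.180 and 0.0200 TPM, from 6.2 and 1 counts. The part of corneal tissue in the Kera level was not tested.

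The 5 proteoglycans among the members made up most of their family. The family has 17 genes here, with summed levels of 1839 and 1882 TPM in replicates 1 and 2. Dcn, Lum and Bgn held 70.2% ± 0.285 (SD, n = 2) of that sum, and with Fmod and Kera the share was 73.0% ± 0.369. Dcn alone took 28.97% ± 0.0936 and Lum 28.8% ± 1.17. Of the 12 other family members 10 reached 1 TPM in both libraries. Ogn, osteoglycin, was the highest of them at 240.07 ± 5.18 TPM, next to Bgn in level, and Nyx, nyctalopin of the retina, was the lowest, with 3 counts in each library. Aspn, asporin, a class I relative of Dcn and Bgn, had 159 and 182 TPM.

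Within the chromosome 10 cluster the levels fell into a high pair, Dcn and Lum, and a low pair, Kera and Epyc. Dcn, Lum, Kera and Epyc follow one another on the plus strand of chromosome 10, with gaps of 47.0, 34.2 and 30.4 kb and no other protein-coding gene between them. Dcn and Lum took 48.1% ± 1.42 and 47.8% ± 0.692 of the summed TPM of these 4 genes, Kera 1.76% ± 0.0836 and Epyc, epiphycan of cartilage, 2.36% ± 0.641. Epyc had 31.8 and 21.2 TPM in replicates 1 and 2, while the cartilage markers had a median log2 ratio of −0.53 relative to the median gene; their part in the Epyc value was not tested. On chromosome 1, Fmod had 74.4% ± 2.25 of the summed TPM of itself, Prelp and Optc. Prelp had 10.6 ± 0.905 TPM, and Optc, opticin of the eye, had 1.04 and 0.62 TPM from 19 and 18 counts. The cluster on chromosome 13 with no member, in the order Ecm2, Aspn, Omd and Ogn, ran from 1.31 TPM for Ecm2 to the level of Ogn given above.

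**Figure D2:**
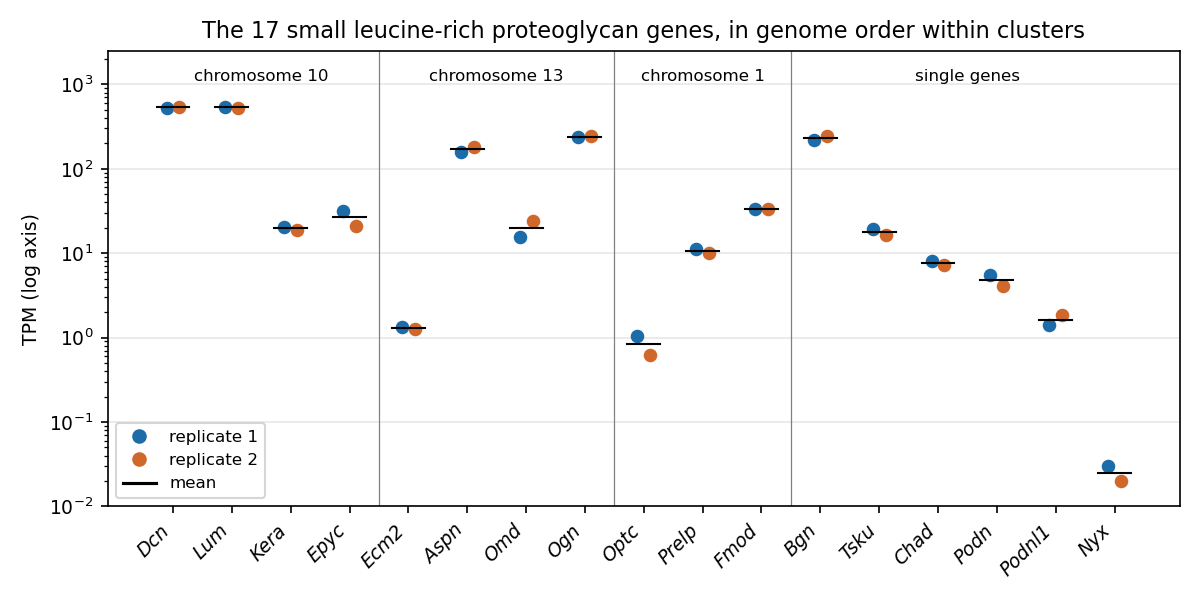
TPM on a log axis of the 17 small leucine-rich proteoglycan genes, grouped by genome cluster and in genome order within each, with 1 point per library and a line at the mean. Within the chromosome 10 cluster Dcn and Lum stand at 527 TPM or more and Kera and Epyc between 18.95 and 31.8 TPM.

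The tendon members also differed from their nearest relatives. Of the 5 thrombospondin genes, Thbs4 took 17.9% ± 1.23 of the summed TPM, below Thbs2 at 40.1% ± 2.69 and Thbs1 at 24.1% ± 1.29. Comp, a thrombospondin of cartilage and adult tendon, was the lowest with 7.33 and 4.83 TPM. Of the 4 Egr genes, Egr2 took 9.35% ± 3.02 and Egr1, an immediate early gene that also acts in tendon, took 86.8% ± 3.39 at 14.7 and 15.6 TPM, while Egr4 had 1 count in each library. Cnmd, chondromodulin of cartilage and the closest relative of Tnmd, had 151 and 95.4 TPM, so that Tnmd stood at 0.569 of its level in replicate 1 and at 0.750 in replicate 2. Cnmd is 1 of the cartilage markers that were lower in replicate 2.

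**Figure D3:**
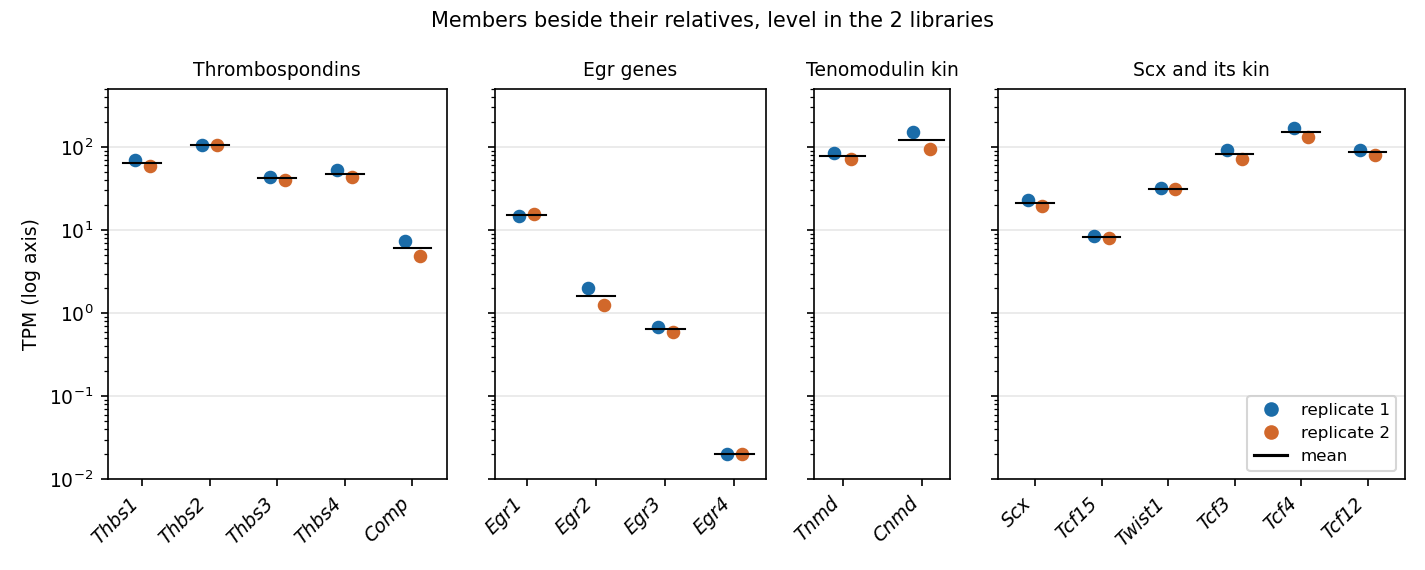
TPM on a log axis of Thbs4, Egr2, Tnmd and Scx beside related genes, with 1 point per library and a line at the mean. Egr2 lies below Egr1 in both libraries, and Tnmd lies below Cnmd in both.

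The lists of related genes are read against the 63.9% of protein-coding genes that reached 1 TPM in both libraries. Of 12 relatives of Scx and Mkx, among them the E proteins with which Scx pairs and the Irx homeobox genes, 11 reached 1 TPM in both libraries. The E protein gene Tcf4 was the highest at 151 ± 24.5 TPM, 7.04 ± 0.324 times Scx, and Irx6 was the lowest at 0.290 and 0.300 TPM. Of 17 signals, receptors and effectors of tendon formation 15 reached 1 TPM in both. The ligand gene Tgfb3, whose product keeps up Scx expression, had 49.98 and 45.2 TPM and the receptor gene Tgfbr2 50.2 and 44.8 TPM. The ligand gene Tgfb2 had 53.98 and 35.8 TPM, the highest of the list in replicate 1. These genes, the highest of the list by mean, could not be ordered. Gdf7 was the lowest at 0.190 and 0.420 TPM. Of 21 genes of tendon and ligament matrix 20 reached 1 TPM in both, from Col1a1 at 2955 and 3598 TPM down to Cilp2 at 0.880 and 0.970 TPM. The median level was 20.5 TPM for the signal list and 145 TPM for the matrix list.

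Enzymes for both kinds of proteoglycan chain were listed, and the counts stand against the same 63.9%. All 20 genes for the linker and for chondroitin or dermatan sulfate reached 1 TPM in both libraries, with a median of 16.1 TPM. Chpf, a chondroitin polymerising factor, was the highest at 51.8 ± 2.74 TPM and Chst3 the lowest at 1.04 ± 0.0495 TPM. Dse and Chst14, which act in dermatan sulfate synthesis, had 38.7 ± 2.86 and 42.2 ± 4.497 TPM. Of 10 genes for keratan sulfate 9 reached 1 TPM in both, with a median of 7.07 TPM. B4galt1, a galactosyltransferase with many other substrates, was the highest at 53.0 ± 1.51 TPM, and Chst4 had 2 counts in replicate 1 and 0 in replicate 2. Chst5 and B3gnt7, enzymes of keratan sulfate chains, had 4.46 ± 0.601 and 4.20 ± 0.693 TPM. None of the genes of the relative, signal, matrix and chain enzyme lists at 5 TPM or more differed 2-fold between the libraries. Of all 11482 genes at that level 0.47% were 2-fold higher in replicate 2 and 0.244% lower, so this count says little about the lists.

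Most reads of each member came from 1 annotated transcript. Scx, Tnmd, Lum and Kera have 1 transcript each in the annotation used by the authors. The top transcript held 98.4% ± 0.424 of the TPM of Dcn, 93.2% ± 1.53 of Bgn, 99.5% ± 0.714 of Fmod and 99.7% ± 0.445 of Thbs4. The 2 Dcn transcripts have the same number of coding bases, 1062, and start 2758 bases apart, with the downstream start at 1.35% in replicate 1 and 1.95% in replicate 2. The second Bgn transcript, a short processed transcript from the end of the gene, held 4.18% and 5.41%.

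Mkx and Egr2 differed in their transcript mix between the libraries, and their gene TPM is computed from that mix. For Mkx the top transcript held 93.3% in replicate 1 and 81.4% in replicate 2. A short transcript with a retained intron held 3.44% and 17.9%, from 3.64 and 25.9 counts, so that few reads carried a large share of TPM. The effective length of the gene, which is weighted by this mix, was 2927 bases in replicate 1 and 2586 bases in replicate 2. By the gene's TPM Mkx was higher in replicate 2, by 0.08 on the log2(TPM + 1) scale, and by the TPM of its top transcript alone, at 15.3 and 14.2 TPM, it was lower, by −0.11. In CPM it was 30.7 in replicate 1 and 30.4 in replicate 2, a ratio of 0.990 with a counting interval of 0.908 to 1.08.

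For Egr2 the top transcript held 52.7% of TPM in replicate 1 and 99.0% in replicate 2. The rest in replicate 1 was spread over 4 other transcripts with 25.1, 2.90, 1.47 and 0.930 counts. The effective length was 2277 bases in replicate 1 and 2865 bases in replicate 2. The gene's TPM gave a log2 ratio of −0.41 and the top transcript alone, at 1.06 and 1.25 TPM, gave 0.13. The direction thus differed between the gene's TPM and that of its top transcript, on under 100 counts per library. In CPM, which does not use the split between transcripts, the gene was at 2.91 in replicate 1 and 2.44 in replicate 2. That is a ratio of 0.838, the direction of the gene's TPM, with a counting interval of 0.619 to 1.13.

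**Figure D4:**
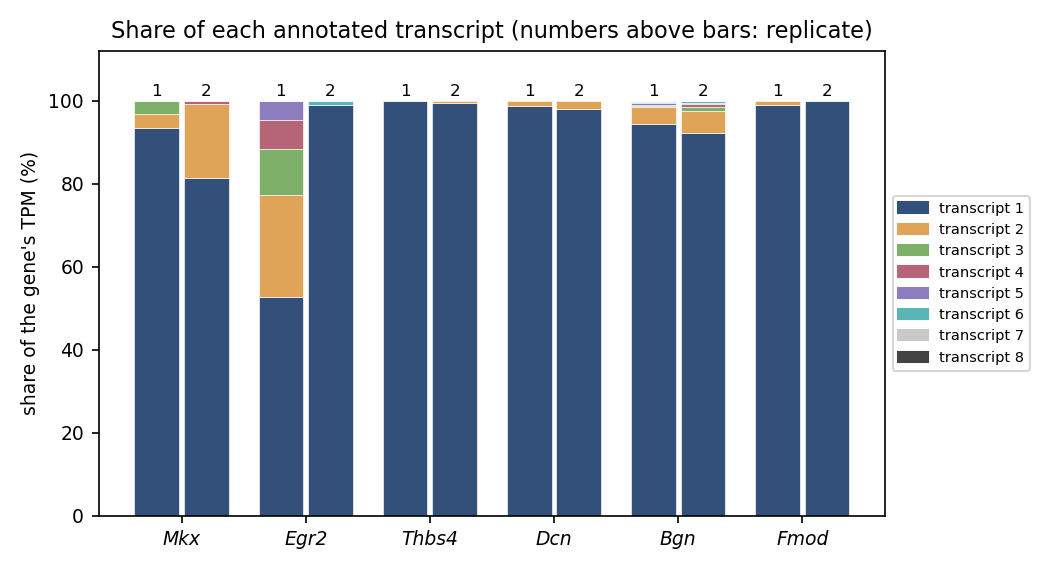
Share of each annotated transcript in the TPM of the gene, in percent, for the 6 members with more than 1 transcript; the left bar of each pair is replicate 1 and the right bar replicate 2, and colours number the transcripts from the highest mean share down. The top transcript of Egr2 holds 52.7% in replicate 1 and 99.0% in replicate 2, and that of Mkx 93.3% and 81.4%.

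The bases before the starts of the top transcripts are shown because the shares above assign most of the TPM of these genes to those transcripts, apart from Egr2 in replicate 1. RefSeq windows (GRCm38.p6, the build of mm10) were given for 6 members, and for Tnmd, Thbs4, Fmod, Bgn and Egr2 the RefSeq start lay within 50 bases of the start of the top transcript, at 28 bases after it for Tnmd. For Kera it lay 326 bases after it, and its window is not shown. Each run is the 250 bases before the RefSeq start, 5′ to 3′ on the strand of the gene. Capitals mark the letters CANNTG, the E-box that helix-loop-helix factors such as scleraxis can bind, and in Egr2 also the CArG box, which serum response factor can bind.
Tnmd (chrX:133850758-133851007, plus strand): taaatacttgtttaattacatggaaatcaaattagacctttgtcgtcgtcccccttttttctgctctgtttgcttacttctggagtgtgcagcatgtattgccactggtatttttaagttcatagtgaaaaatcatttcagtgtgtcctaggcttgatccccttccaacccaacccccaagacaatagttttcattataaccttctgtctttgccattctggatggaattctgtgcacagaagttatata
Thbs4 (chr13:92794819-92795068, minus strand): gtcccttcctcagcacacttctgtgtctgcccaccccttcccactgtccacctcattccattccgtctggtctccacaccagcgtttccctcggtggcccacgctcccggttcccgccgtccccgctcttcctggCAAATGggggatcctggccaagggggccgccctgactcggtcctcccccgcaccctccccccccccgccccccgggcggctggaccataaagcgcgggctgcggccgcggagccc
Fmod (chr1:134037004-134037253, plus strand): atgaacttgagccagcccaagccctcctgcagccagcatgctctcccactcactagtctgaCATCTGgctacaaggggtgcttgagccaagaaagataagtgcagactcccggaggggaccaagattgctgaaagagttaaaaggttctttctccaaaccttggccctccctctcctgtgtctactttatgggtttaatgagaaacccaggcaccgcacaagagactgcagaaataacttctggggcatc
Bgn (chrX:73483351-73483600, plus strand): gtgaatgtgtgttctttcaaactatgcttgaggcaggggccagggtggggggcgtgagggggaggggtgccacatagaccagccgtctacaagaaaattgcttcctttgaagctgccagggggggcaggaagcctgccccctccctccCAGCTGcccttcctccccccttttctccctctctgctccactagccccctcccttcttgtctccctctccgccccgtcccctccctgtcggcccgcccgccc
Egr2 (chr10:67537619-67537868, plus strand): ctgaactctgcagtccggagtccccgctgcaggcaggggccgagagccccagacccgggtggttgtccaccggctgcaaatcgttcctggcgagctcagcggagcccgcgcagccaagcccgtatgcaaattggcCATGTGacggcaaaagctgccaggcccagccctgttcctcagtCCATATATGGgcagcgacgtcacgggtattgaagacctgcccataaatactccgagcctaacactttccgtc

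The windows differed in base composition and held few of the motifs searched. The share of G and C was 38.4% for Tnmd, 51.2% for Fmod, 61.6% for Egr2, 64.4% for Bgn and 70.8% for Thbs4, against a median of 52% over 27025 RefSeq windows of the same length. The window of Tnmd, the member with the lowest share, held no CANNTG. Fmod, Thbs4, Bgn and Egr2 held 1 each, at 189, 115, 102 and 115 bases before the start, and 66.0% of all windows held at least 1. The letters GGGCGG or their reverse complement, a GC box, stood 3 times in Thbs4 and 3 times in Bgn, and 32.9% of all windows held them. CCAAT, searched on both strands, stood once, in Egr2, and 34.5% of all windows held it. Neither TATAAA nor GCGNGGGCG, a site that Egr factors can bind, was found on either strand in the 5 windows, while 12.97% and 4.65% of all windows held them. The CArG box stood once, in Egr2, 72 bases before the start, and 1.40% of all windows held one. CANNTG and the CArG box read the same on both strands, and no 2 of the motifs marked in capitals overlapped. A match of letters is a description and not a shown binding site.

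Between the libraries none of the 10 genes differed 2-fold. A gene was counted where the ratio on the log2(TPM + 1) scale, which is damped for low genes, reached 2-fold at a mean of 5 TPM or more. Of the 9 members at that level, 0 were higher 2-fold in replicate 2 and 0 were lower, where 0.47% of all 11482 genes were higher and 0.244% lower. At 1.5-fold in either direction the count was 0 of 9, against 2.5% of all genes. With so low a background these counts say little about the members in particular.

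The member proteoglycans lay above the median gene and the tendon members other than Mkx below it. All 5 had ratios above it, from 0.04 for Kera and 0.10 for Lum to 0.17 for Fmod, 0.19 for Dcn and 0.31 for Bgn, relative to the median. Of the 12 other family members 7 were at a mean of 5 TPM or more, and 3 of these lay above the median gene. Among the tendon and ligament matrix genes at that level, 18 of 19 lay above it, with a median of 0.12 relative to it. The counts were 6 of 12 for the tendon signals and 3 of 9 for the relatives of Scx and Mkx. Lying above the median gene was thus not particular to the member proteoglycans. Of the tendon members Scx, Tnmd and Thbs4 were below it, at −0.08, −0.11 and −0.13, and Egr2 at −0.26, while Mkx was above at 0.23. By the TPM of its top transcript alone Egr2 had a log2 ratio of 0.13, above the median of −0.15. Scalings that shift all genes alike cannot change these sides, so their agreement across scalings is no sign of stability. Before the median was taken off, Lum was at −0.05 and Kera at −0.11 in TPM, and with TMM scaling, edgeR's correction for library composition, they were at 0.10 and 0.04. Mkx was at 0.08 in TPM and at −0.01 as the log2 ratio of CPM. Relative to the median gene, Mkx was at 0.23 in TPM but at 0.06 with TMM and at 0.06 with DESeq2 size factors. On the log2(TPM + 1) scale only Bgn passed the SD of all genes, 0.28. Bgn also passed it with TMM, at 0.29 against an SD of 0.22, and with DESeq2 size factors, at 0.29 against 0.22. With a pseudocount of 0.1 TPM Bgn fell short of the SD, at 0.32 against 0.37. Egr2 passed it with smaller pseudocounts, at −0.35 against 0.30 with 0.5 TPM and at −0.47 against 0.37 with 0.1 TPM. A difference between the proteoglycans and the tendon genes was not tested, since each side rests on the same pair of libraries.

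**Figure D5:**
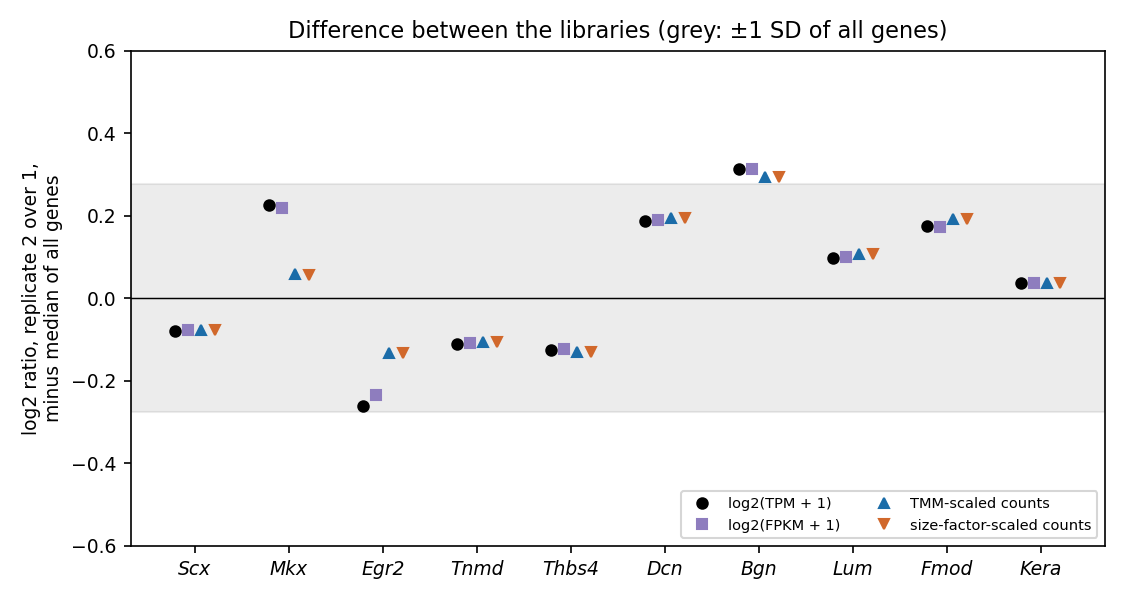
Log2 ratio of replicate 2 to replicate 1 for each of the 10 genes, minus the median of all genes at a mean of 5 TPM or more, under 4 scalings shown by symbols; the grey band is ±1 SD of all genes on the log2(TPM + 1) scale. The symbols of Mkx and Egr2 lie further apart because TPM and FPKM use the effective length of each library and the scaled counts do not, and those of the other 8 genes lie close together.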

How the data were processed

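Gene and transcript estimates of 2 total RNA libraries were used as deposited. Per the file headers, the authors deposited expected counts, which are estimates of the reads of a gene or transcript. TPM and FPKM are the authors' length-scaled values, per the file headers, and TPM covers all features including spike-ins. Per the file headers, the authors also deposited each transcript's percent of the TPM of its gene. A text deposited with each library names mm10 and GENCODE M4. The aligner, the version of the quantifier and the use of strand: not given in the sources used here. The most frequent difference between length and effective length was 99 bases.

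GENCODE M21, also on mm10, gave symbols, positions and transcript types and named 42462 of 43346 Ensembl genes (98%). Of the listed symbols 1 was not matched. Expressed means 1 TPM or more. Ratios use a pseudocount of 1 TPM. Exact 95% intervals on rounded expected counts cover counting error only, since each side is 1 library. The files give no molecular identifiers, so duplicate reads could not be told apart from separate molecules. Near-copies of at least 90% identity over 200 bases were sought with BLAST 2.17.0. The only match was 201 bases shared by Mkx with AC148004.2, an overlapping gene of M21 whose transcript M4 counts in Mkx. Values were computed with pandas 2.3.3, scipy 1.17.1 and numpy 2.4.6 in Python 3.11.15 and drawn with matplotlib 3.10.9. Rounded expected counts gave TMM factors in edgeR 4.0.16 and size factors in DESeq2 1.42.0 under R 4.3.3; neither tool's test was used. The fold rule and the interval were tested on simulated data.

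The members and lists were chosen with earlier results of these data known. Named are all members and, of each list, the highest and lowest gene and any that differed 2-fold. Other genes named, including Aspn, Epyc, Prelp, Optc, Ecm2, Thbs1, Tgfb2, Tgfbr2, Dse, Chst14, Chst5, B3gnt7 and the markers, were chosen after their values were seen. With 2 libraries no likeness of patterns across samples can be measured, so no gene is named as following a member. Protein features were planned, but no protein sequences were used here. Alternatives were other thresholds, pseudocounts, units, scalings, filters and each replicate left out; the TPM of the top transcript alone was added after the data were seen.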

Additional observations from a re-analysis of the deposited data

How the results depend on the processing

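All 10 members reached 0.5 TPM in both libraries, and 9 did at 2 TPM, at 5 TPM and at 1 FPKM, where Egr2 dropped out. The count was 10 with either library alone. The median level of the 10 genes, 40.6 ± 3.03 TPM, was 26.6 in FPKM, a different unit, and 38.4 to 42.7 TPM with 1 library left out. No member passed 2-fold with lower filters, other pseudocounts, FPKM, TMM, DESeq2 size factors or median centring, and none passed 1.5-fold. The median member log2 ratio of −0.08 was −0.08 with both other pseudocounts and 0.0009 in FPKM, 0.05 with TMM, 0.04 with DESeq2 size factors and 0.07 after centring on the median, each within the SD of all genes (0.28). TMM moved the median of all genes from −0.15 to −0.0019. Of 70 alternative values of single members' ratios 1 moved by more than that SD, Egr2 by its top transcript alone. The median share of the top transcript over the 6 members with several, 95.8%, was 98.4% as a share of expected counts, and 96.5% to 98.5% with 1 library left out. No paired analysis was possible because there is 1 group. Depth limits Egr2 most, with 182 counts in all.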
